A study of Mus musculus with 8 samples.

Results

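The collagen genes were all genes whose symbol is Col, a number, the letter a and a number, and 43 such genes were found among the 23523 genes and unnamed transcripts of the table. RNA sequencing of 3 normal mouse brains and 5 mouse glioblastomas gave their levels. The tumours were induced with a lentiviral vector that expressed HrasG12V, an activated form of the small GTPase Hras, together with a short hairpin RNA against p53. They were taken when the mice had reached the clinical endpoint, and adjacent normal brain was cut away from the GFP+ tissue under a dissecting microscope. The strain, age and brain region, and any treatment of the mice that gave the normal brains, are not analysed here because the labels do not state them. The labels state no vector-treated brain without a tumour, so the vector, the time of collection and the tumour cannot be told apart. By structure the genes were divided into 11 that encode fibrillar collagens, 6 that encode the type IV collagens of basement membranes and 26 others.

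Collagens are extracellular proteins in which 3 alpha chains wind into a triple helix, and each gene encodes 1 chain. Fibrillar collagens assemble into the cables of connective tissue, whereas type IV collagens form the sheet-like network under endothelium and epithelium. Other members bind to the surface of fibrils, form beaded filaments, short networks or anchoring fibrils, cross the plasma membrane, or carry the endostatin domain. Healthy brain parenchyma is poor in fibrillar collagen, and its collagen lies mostly around blood vessels, in the meninges and in the choroid plexus, while a few members are made by neurons and glia.

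The libraries held between 5490351 and 15564280 fragments, so that 3 fragments were worth between 0.193 and 0.546 CPM before TMM normalisation. The CPM of genes are fragment counts scaled to library size after TMM normalisation. Whether each sample is its own animal is not stated in the labels, and the p-values therefore measure the spread between these samples only. Hras RNA, which the gene and the vector can both give, stood between 94.1 and 102 CPM in the brains and between 326 and 479 CPM in the tumours, and Trp53 RNA, the target of the hairpin, between 4.73 and 7.21 CPM in the brains and between 2.73 and 5.92 CPM in the tumours, so that the Trp53 values overlapped. Because the samples are pieces of tissue, fewer cells of a type and less RNA per cell cannot be told apart. Of the markers listed for brain cells, 6 of 8 neuronal, 7 of 7 oligodendrocyte and 3 of 6 astrocyte genes were lower in the tumours. The other neuronal and astrocyte genes were not called by the test described below. Of 9 macrophage and microglia genes 7 were higher, P2ry12 was lower and Cx3cr1 was not called. That test called 37.1% of all tested genes higher and 33.9% lower. Brain 1 stood apart by the summed level of 8 choroid plexus markers, 1471 CPM against 52.7 and 63.2 CPM in the other brains. Its oligodendrocyte marker sum was also higher, 6018 CPM against 3107 and 3096 CPM. Its fibroblast and meningeal marker sum was lower, 16.7 CPM against 68.2 and 79.4 CPM. Tumour 4 had the largest library.

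Collagen RNA was more abundant in the tumours as a group, but not every gene shared this. The summed collagen level lay between 68.6 and 87.1 FPKM (fragments scaled by transcript length and library size) in the brains and between 418 and 1061 FPKM in the tumours, a ratio of means of 9.52. Of the 37 collagen genes with enough fragments to be tested, 24 were higher and 5 were lower in glioblastoma, and 8 were not called (edgeR quasi-likelihood test, Benjamini-Hochberg adjusted p under 0.05). The background is high: 71% of all 14641 genes that could be tested were called, 37.1% as higher and 33.9% as lower. The median log2 fold change over all of them was 0.06, against 2.79 for the 37 collagen genes. The remaining 6 genes, Col2a1, Col4a3, Col4a4, Col6a6, Col10a1 and Col17a1, had too few fragments. A filter on low levels favours rises, because 7 of the 37 genes passed it through the tumours alone. These were Col4a6, Col6a4, Col7a1, Col9a1, Col13a1, Col15a1 and Col28a1. Of the 30 that the brains alone would have passed, 18 were higher and 5 lower, beside 31.6% higher and 38.2% lower among all genes that passed in the 3 brains. All 5 tumours lay above all 3 brains for 21 of the 37 tested collagen genes and below them for 4, beside 36.1% and 34.5% of all tested genes.

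**Figure D1:**
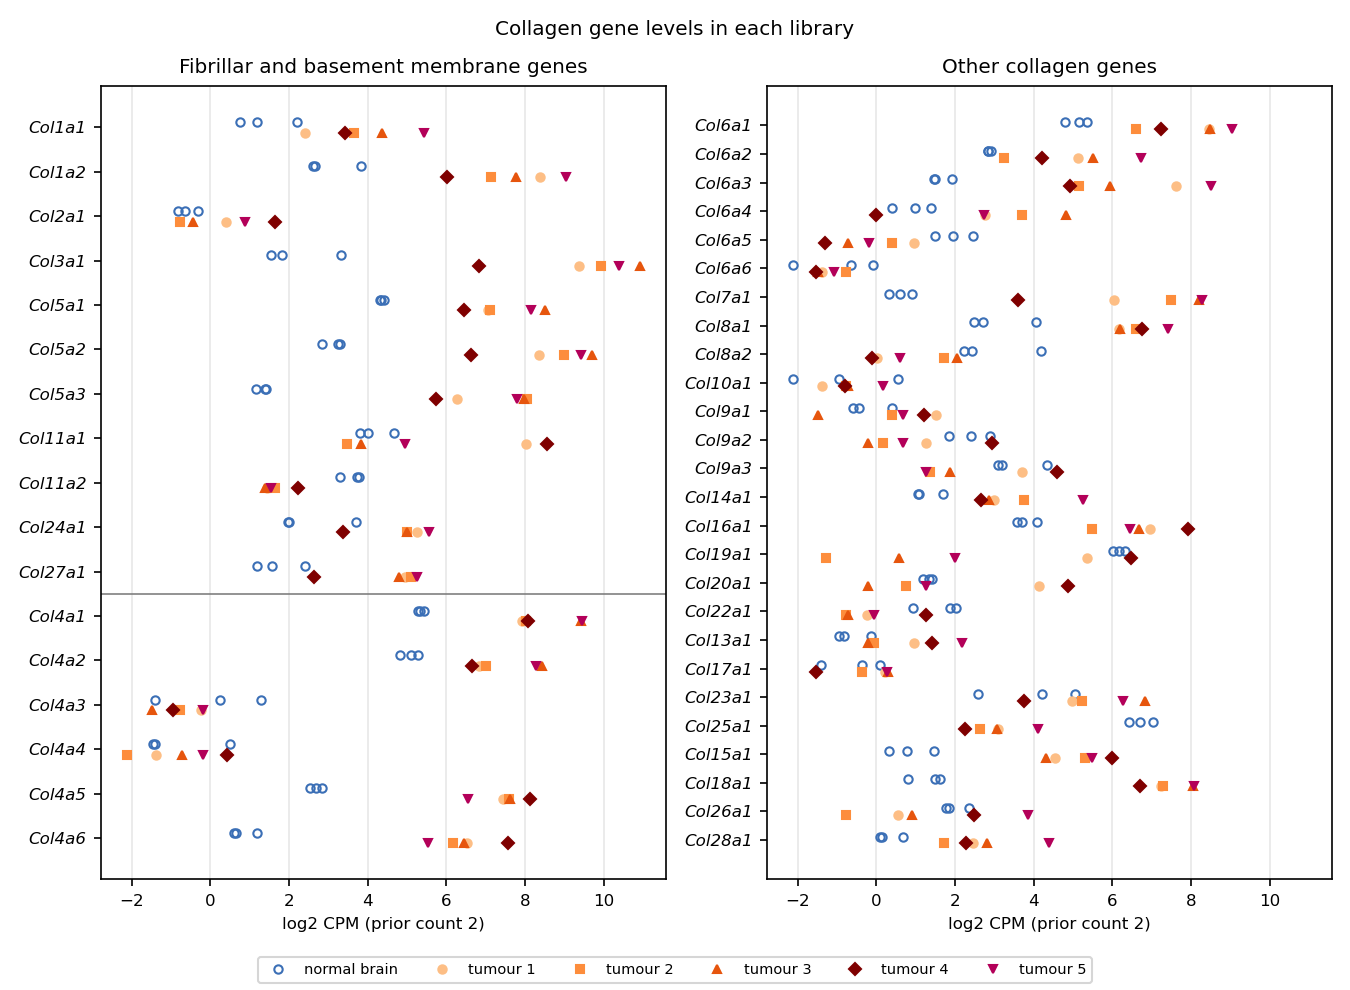
Level of each of the 43 collagen genes in each library as log2 CPM with a prior count of 2 (horizontal axis), with fibrillar and basement membrane genes on the left and the others on the right. Open circles are the 3 brains and filled symbols the 5 tumours. Col3a1, Col5a2 and Col18a1 show wide gaps between the groups, and the tumours of Col11a1, Col19a1 and Col20a1 are spread over several log2 units.

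By class, 8 of 10 tested fibrillar genes were higher and 1 was lower (median log2 fold change 3.19). Of the 6 basement membrane genes 4 could be tested, and all 4 were higher (median 4.16). Among 23 tested other genes, 12 were higher and 4 lower (median 2.16), beside 37.1% and 33.9% of all tested genes. Of these 23, 6 passed the filter on low levels through the tumours alone. Of the 17 others that the brains alone would have passed, 7 were higher and 4 lower, so the rises in this class are nearer the 31.6% of all such genes. All 10 tested fibrillar genes would have passed through the brains alone, as would 3 of the 4 basement membrane genes. Per kilobase, the order of the genes differed between the tissues. Col25a1, which encodes a transmembrane collagen of neurons, had the highest mean level in brain, 14.1 ± 3.00 FPKM (SD, n = 3), followed by Col6a1 with 8.65 ± 1.62 FPKM, Col19a1 with 6.61 ± 0.638 FPKM, Col4a1 with 5.95 ± 0.288 FPKM and Col4a2 with 5.09 ± 0.768 FPKM. The SD ranges of each of these last 4 genes and the next in the order overlap, while that of Col25a1 lies above them. In the tumours Col3a1 led with 177 ± 122 FPKM (SD, n = 5), followed by Col6a1 with 73.7 ± 43.0 FPKM, Col5a2 with 72.5 ± 42.9 FPKM, Col4a1 with 63.2 ± 34.6 FPKM and Col1a2 with 48.9 ± 34.1 FPKM. The SDs of these 5 genes overlap in the tumours. Col3a1 held rank 20 of 43 in brain, and Col25a1 held rank 30 in the tumours.

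The promoter-side sequence of 6 members is shown. Of these, 5 have the largest fitted differences of 5 of the structural groups. They are fibrillar Col3a1, basement membrane Col4a6, beaded-filament Col6a3, anchoring-fibril Col7a1 and the lower, transmembrane Col25a1. The remaining member, Col5a3, is second to Col3a1 among the fibrillar genes. Col18a1, with a log2 fold change of 6.33, is not shown, and its upstream windows overlap an annotated exon. Each line gives the 120 bases just upstream of the annotated gene start on the coding strand, 5′ to 3′, from RefSeq on GRCm38.p6, and none of these windows overlaps an annotated exon. Capitals mark matches on either strand to 1 of 4 motifs that were searched. The first is the TATA box, TATAAA, at which the basal machinery can assemble. The next is the motif of the NF-Y factor, spelled CCAAT. The GC box of Sp1-type factors was searched as GGGCGG. The site of AP-1 factors was searched as TGANTCA. None of the matches overlaps another in the windows shown.
Col3a1, chr1:45311418-45311537, plus strand: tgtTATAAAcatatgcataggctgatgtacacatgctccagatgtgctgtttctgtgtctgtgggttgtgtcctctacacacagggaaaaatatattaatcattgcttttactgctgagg
Col5a3, chr9:20815068-20815187, minus strand: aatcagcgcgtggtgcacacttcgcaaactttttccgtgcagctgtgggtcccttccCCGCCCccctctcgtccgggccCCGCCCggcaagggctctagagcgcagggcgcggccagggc
Col4a6, chrX:141474077-141474196, minus strand: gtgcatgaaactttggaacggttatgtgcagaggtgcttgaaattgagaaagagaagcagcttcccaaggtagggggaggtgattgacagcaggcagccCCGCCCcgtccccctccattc
Col6a3, chr1:90843972-90844091, minus strand: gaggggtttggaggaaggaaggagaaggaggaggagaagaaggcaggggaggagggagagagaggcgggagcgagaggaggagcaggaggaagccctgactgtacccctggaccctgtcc
Col7a1, chr9:108953466-108953585, plus strand: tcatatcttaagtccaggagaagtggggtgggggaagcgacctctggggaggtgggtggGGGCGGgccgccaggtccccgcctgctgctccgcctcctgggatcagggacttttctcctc
Col25a1, chr3:130180725-130180844, plus strand: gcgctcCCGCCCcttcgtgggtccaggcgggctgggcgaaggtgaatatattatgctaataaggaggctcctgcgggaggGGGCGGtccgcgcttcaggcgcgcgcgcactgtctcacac
The window of Col3a1 has 1 match to TATAAA and none to the GC box, whereas those of Col5a3 and Col25a1 have 2 GC box matches each. Over 250 upstream bases, GGGCGG was found in 22 of 38 collagen promoters of 35 genes (57.9%), beside 32.7% of all 32851 promoters in the RefSeq table. The median GC content of these windows was 59.0% for collagen genes and 52.4% for all. The other motifs were about as frequent or less frequent in the collagen promoters, with TATAAA in 5 of 38 collagen promoters and in 12.4% of all, CCAAT in 13 of 38 collagen promoters and in 33.8% of all, and TGANTCA in 1 of 38 collagen promoters and in 6.75% of all. GGGCGG was present in 14 of 23 promoters of genes that were higher and in 4 of 4 of genes that were lower. These are matches of letters only.

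Among the fibrillar genes, the chains of types I, III and V were higher in the tumours. Type III collagen is a homotrimer of soft, extensible tissue and vessel walls. Col3a1 measured 2.70, 3.31 and 9.80 CPM in brains 1 to 3 and 658, 980.2, 1954, 113 and 1339.6 CPM in tumours 1 to 5. All tumours lay above all brains, with tumour 4 lowest among them, and the log2 fold change was 7.56 ± 1.10 (SE; edgeR adjusted p = 0.000309). Without brain 3, which had the highest brain value, it was 8.38. Types I and III form fibrils together, and the main form of type I joins 2 chains from Col1a1 and 1 from Col1a2. Col1a2 measured 5.91, 6.05 and 14.0 CPM in brains 1 to 3 and 333, 139.8, 219.7, 64.7 and 531 CPM in tumours 1 to 5. The groups did not overlap and the log2 fold change was 4.88 ± 0.79 (SE; edgeR adjusted p = 0.000549). Col1a1 measured 2.03, 1.44 and 4.36 CPM in brains 1 to 3 and 5.11, 12.3, 20.3, 10.5 and 42.9 CPM in tumours 1 to 5. Its groups did not overlap, but the gap between brain 3 and tumour 1 was narrow, and the log2 fold change was 2.79 ± 0.75 (SE; edgeR adjusted p = 0.00903). It was 3.40 without brain 3 and 2.20 without tumour 5. The Col1a1 level is uncertain, because it lay below that of Col1a2 in every library.

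Type V collagen copolymerises with type I and limits fibril width, and its 3 chains are encoded by Col5a1, Col5a2 and Col5a3. Col5a1 measured 20.1, 19.6 and 21 CPM in brains 1 to 3 and 132, 138, 367, 86.6 and 283 CPM in tumours 1 to 5. The brains were tightly grouped, and all tumours were above them (log2 fold change 3.31 ± 0.52, SE, edgeR adjusted p = 0.000445). Col5a2 measured 6.93, 9.22 and 9.53 CPM in brains 1 to 3 and 327, 513, 841, 99.0 and 686 CPM in tumours 1 to 5. Here too every tumour was above every brain (log2 fold change 5.84 ± 0.75, SE, edgeR adjusted p = 0.000147). Col5a3 measured 2.37, 2.02 and 2.45 CPM in brains 1 to 3 and 77.6, 267, 252, 53.0 and 224 CPM in tumours 1 to 5. Its brains were just above the filter on low levels, which lay near 1.32 CPM before TMM scaling. Its tumours were all above its brains (log2 fold change 6.25 ± 0.73, SE, edgeR adjusted p = 8.51e-05). In each of the 3 genes tumour 4 was the lowest tumour.

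Col11a1 and Col11a2, which encode chains of type XI collagen, a fibril nucleator of cartilage, had different patterns. Col11a2 measured 13.0, 13.5 and 9.67 CPM in brains 1 to 3 and 2.48, 2.88, 2.39, 4.42 and 2.66 CPM in tumours 1 to 5. All tumours were below all brains, and the log2 fold change was -2.0 ± 0.27 (SE; edgeR adjusted p = 0.000185). Col11a1 measured 25.2, 13.8 and 15.9 CPM in brains 1 to 3 and 259.7, 10.8, 14.1, 375 and 30.8 CPM in tumours 1 to 5. Tumours 1 and 4 were far above the brains, tumours 2 and 3 were at or just below the brain range and tumour 5 was slightly above it. The log2 fold change was 2.92 ± 1.28 (SE; edgeR adjusted p = 0.0675), so it was not called. The call depends on 1 library at a time: the adjusted p was 0.0362 without tumour 2 and 0.0395 without tumour 3, and the log2 fold change was 2.12 without tumour 4. DESeq2, run as an alternative, called it higher. Tumours 1 and 4 were also the ones with high summed levels of 6 oligodendrocyte precursor markers (1003 and 1839 CPM, beside 148, 258 and 391 CPM in tumours 2, 3 and 5 and 238 to 252 CPM in the brains). Pdgfra makes up much of that sum, and the mean log2 CPM of the 6 markers was 5.92 and 6.81 in tumours 1 and 4, 2.26 to 3.37 in the other tumours and 4.65 to 4.99 in the brains. The part of those cells in the Col11a1 values was not tested.

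Col24a1 and Col27a1 encode fibrillar collagens with shorter or interrupted helices that occur in bone and cartilage. Col24a1 measured 12.8, 3.75 and 3.68 CPM in brains 1 to 3 and 37.6, 31.5, 31.9, 10.2 and 47.3 CPM in tumours 1 to 5. Brain 1 was above tumour 4, so the groups overlapped (log2 fold change 2.24 ± 0.60, SE, edgeR adjusted p = 0.00898, and 3.09 without brain 1). Col27a1 measured 5.07, 2.74 and 2.04 CPM in brains 1 to 3 and 30.7, 34.1, 27.7, 5.93 and 37.8 CPM in tumours 1 to 5. Its groups did not overlap, although tumour 4 was close to brain 1 (log2 fold change 3.06 ± 0.63, SE, edgeR adjusted p = 0.00224). Col2a1, the main cartilage collagen, had too few fragments to be tested, with 9 fragments over all brains and 83 over all tumours. Of 8 cartilage and bone markers 7 were measured and 5 of those were also too low to be tested. The tested members went opposite ways. Hapln1, a link protein of cartilage and of the matrix around neurons, was lower, at 26.5 to 33.1 CPM in the brains and 0.360 to 3.39 CPM in the tumours. Ibsp, a bone matrix protein, was higher, at 0 to 0.432 CPM in the brains and 3.41 to 15.0 CPM in the tumours. The summed level of the list, 27.5 to 36.1 CPM in the brains and 5.73 to 21.1 CPM in the tumours, is mostly Hapln1 in the brains. Bglap, the bone marker osteocalcin, was at 0 in 7 of 8 libraries.

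Fibroblasts, pericytes and meningeal cells are known sources of fibrillar collagen. Of 10 fibroblast and meningeal markers, 4 were higher in the tumours (Lum, Foxc1, Aldh1a2 and Twist1), 1 was lower, 2 were not called and 3 were not tested, beside 37.1% higher among all tested genes. Of the 7 tested, 4 passed the filter through the tumours alone, and of the other 3, 1 was higher and 1 lower. Their summed level was 16.7 to 79.4 CPM in the brains and 84.8 to 513 CPM in the tumours. Dpt was at 0 in 3 libraries and Foxc2 in 2. Among 10 pericyte and smooth muscle markers 5 were higher, 1 lower and 4 not called, beside 37.1% higher and 33.9% lower among all tested genes. Their sum was 102 to 119 CPM in the brains and 204 to 911 CPM in the tumours. Acta2 alone was at 657 CPM in tumour 3, the tumour with the highest sum. Rgs5, Abcc9, Higd1b and Notch3 were not called, and Myh11 was lower. Tumour 4 was the lowest tumour in both sums, and it was also the lowest tumour for Col1a2, Col3a1, Col5a1, Col5a2 and Col5a3. The single pericyte and smooth muscle markers did not all share this order. Pdgfrb, Acta2, Myh11 and Cnn1 were lowest of the tumours in tumour 4. Kcnj8, Higd1b and Notch3 were highest there, at 8.31, 2.50 and 17.5 CPM. The part of these cells in the fibrillar values was not tested.

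The 6 genes of type IV collagen are arranged as head-to-head pairs. Col4a1 and Col4a2 encode the chains found in nearly all basement membranes, and their RefSeq starts lie 21 bases apart on opposite strands of chromosome 8. Col4a1 measured 42.6, 38.5 and 39.8 CPM in brains 1 to 3 and 243, 261, 688, 269.7 and 697 CPM in tumours 1 to 5. Col4a2 measured 33.8, 28.2 and 38.3 CPM in brains 1 to 3 and 113, 129, 344, 100.5 and 311 CPM in tumours 1 to 5. For both genes every tumour was above every brain, with tumours 3 and 5 highest. The log2 fold change was 3.42 ± 0.48 for Col4a1 and 2.58 ± 0.50 for Col4a2 (SE; edgeR adjusted p = 0.000255 and 0.00160).

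Col4a5 and Col4a6 form the X-linked pair, with starts 1343 bases apart, and encode chains of specialised membranes such as those around smooth muscle. Col4a5 measured 5.58, 6.2 and 6.94 CPM in brains 1 to 3 and 172, 194, 197, 279 and 93.6 CPM in tumours 1 to 5. Col4a6 measured 1.35, 1.30 and 2.04 CPM in brains 1 to 3 and 92.3, 72.3, 87.5, 190.4 and 46.2 CPM in tumours 1 to 5. In both genes tumour 4, which was the lowest tumour for 7 of the 11 fibrillar genes, was the highest and tumour 5 the lowest, and no tumour overlapped a brain. The log2 fold change was 4.90 ± 0.38 (SE; edgeR adjusted p = 9.4e-06) for Col4a5. For Col4a6, which passed the filter on low levels in only 1 brain, it was 5.95 ± 0.58 (SE; edgeR adjusted p = 2.98e-05). The remaining pair, Col4a3 and Col4a4, builds the kidney glomerular membrane with Col4a5. Col4a3 had 21 fragments over all brains and 20 over all tumours. Col4a4 had 9 fragments over all brains and 31 over all tumours, and neither gene was tested. Endothelial cells are a main source of type IV collagen in brain. Of 12 endothelial markers 10 were higher, beside 37.1% of all tested genes and 31.6% of those that passed the filter in the 3 brains. Their sum was 141 to 161 CPM in the brains and 338 to 667 CPM in the tumours. Unlike Col4a5 and Col4a6, the endothelial sum was lowest in tumour 4. The part of endothelial cells was not tested.

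**Figure D2:**
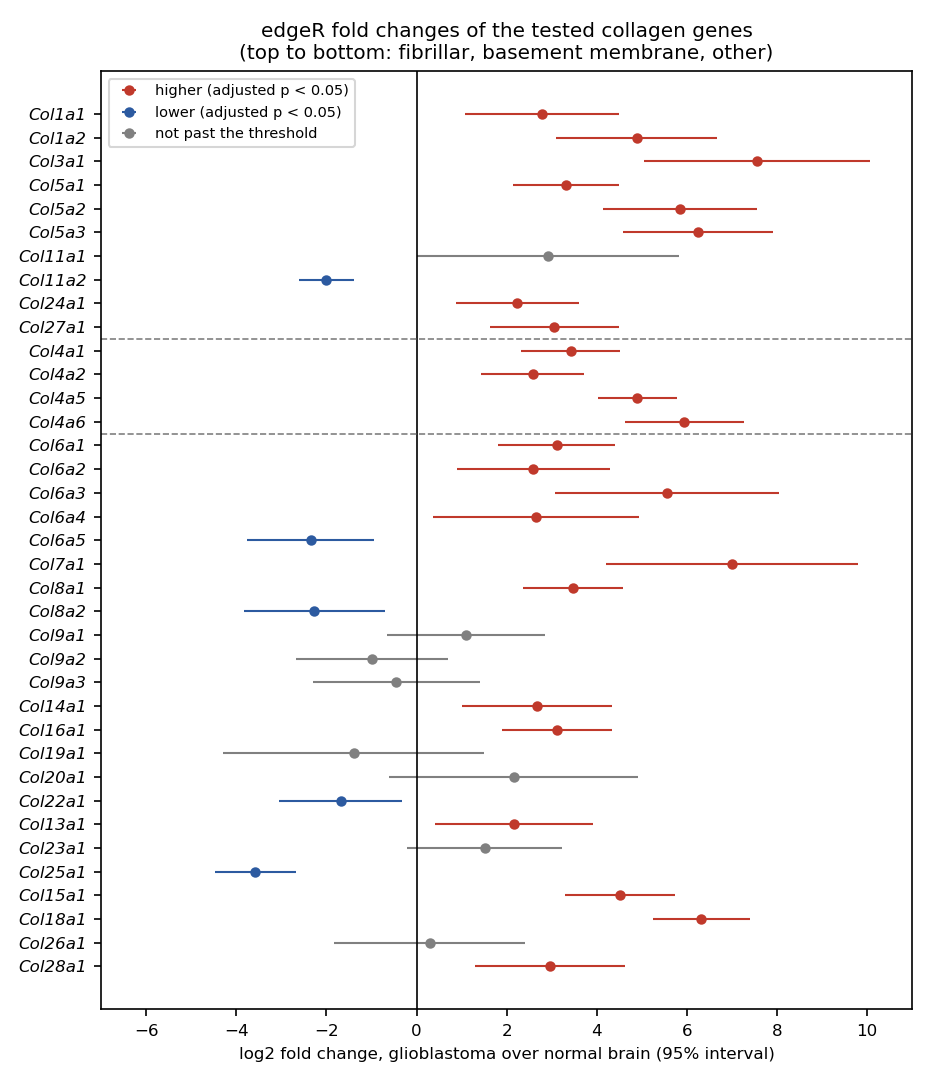
Fitted log2 fold change of glioblastoma against normal brain (horizontal axis) for the 37 tested collagen genes, with 95% confidence intervals from edgeR; colours mark higher, lower and uncalled genes. Col3a1 and Col7a1 lie farthest to the right, at 7.56 and 7.0, and Col25a1 farthest to the left, at -3.58.

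Type VI collagen forms beaded filaments around cells, with chains from Col6a1 and Col6a2 and another chain from Col6a3 or its relatives Col6a4, Col6a5 and Col6a6. Col6a1 measured 35.1, 27.7 and 40.4 CPM in brains 1 to 3 and 349, 96.9, 359, 149.6 and 529.9 CPM in tumours 1 to 5. Col6a2 measured 6.93, 6.92 and 7.35 CPM in brains 1 to 3 and 34.7, 9.19, 45.2, 18.2 and 105 CPM in tumours 1 to 5. Col6a3 measured 2.53, 2.59 and 3.54 CPM in brains 1 to 3 and 198, 35.3, 60.7, 29.9 and 367 CPM in tumours 1 to 5. In these 3 genes the brains were close to each other, all tumours were above them, and tumour 5 was highest. The log2 fold change was 3.11 ± 0.57 for Col6a1 (edgeR adjusted p = 0.00121) and 2.59 ± 0.75 for Col6a2 (edgeR adjusted p = 0.0126, 1.93 without tumour 5). For Col6a3 the log2 fold change was 5.57 ± 1.09 (SE; edgeR adjusted p = 0.00170), and 4.80 without tumour 5. The relatives of Col6a3 went separate ways. Col6a5 measured 5.24, 3.60 and 2.59 CPM in brains 1 to 3 and 1.70, 1.08, 0.378, 0.174 and 0.646 CPM in tumours 1 to 5. It was lower in the tumours, with every tumour below every brain (log2 fold change -2.35 ± 0.62, SE, edgeR adjusted p = 0.00820). Col6a4 measured 2.37, 1.73 and 1.09 CPM in brains 1 to 3 and 6.51, 12.8, 28.0, 0.756 and 6.46 CPM in tumours 1 to 5. Col6a4 passed the filter on low levels through the tumours alone. Tumour 4 was below all brains while the other tumours were above them, and the log2 fold change was 2.65 ± 1.0 (SE; edgeR adjusted p = 0.0406). That call was lost when any single brain, tumour 2 or tumour 3 was left out (edgeR adjusted p between 0.0663 and 0.121), and without tumour 3 the log2 fold change was 1.92. Col6a6 was not tested, with 8 fragments over all brains and 9 over all tumours.

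Type VII collagen is a homotrimer that makes the anchoring fibrils under skin epithelium. Col7a1 measured 1.01, 1.30 and 1.63 CPM in brains 1 to 3 and 65.2, 179, 297, 11.9 and 308 CPM in tumours 1 to 5. Brain values were near the filter on low levels, and all tumours were above them with a 26.0-fold span between tumours 4 and 5. The log2 fold change was 7.0 ± 1.22 (SE; edgeR adjusted p = 0.000880). It passed the filter in 1 brain only, and its fragments were not whole numbers in 2 libraries, a sign that some were shared with another transcript. Types VIII and X are short-chain collagens that form hexagonal networks, type VIII in vessel walls and the cornea and type X in growth cartilage. Col8a1 measured 16.6, 6.34 and 5.31 CPM in brains 1 to 3 and 71.1, 97.1, 73.4, 107 and 169.7 CPM in tumours 1 to 5. All tumours were above all brains (log2 fold change 3.47 ± 0.49, SE, edgeR adjusted p = 0.000255, and 4.15 without brain 1). Col8a2, its partner chain, measured 17.9, 4.47 and 5.17 CPM in brains 1 to 3 and 0.775, 3.06, 3.90, 0.698 and 1.29 CPM in tumours 1 to 5. The tumours were below the brains, but brain 1 stood apart from the other brains, as it did for the choroid plexus markers, and the log2 fold change was -2.27 ± 0.69 (SE; edgeR adjusted p = 0.0157). Without brain 1 the change was -1.34 and was not called (edgeR adjusted p = 0.124). The part of choroid plexus, or of the other cell types whose markers set brain 1 apart, in the Col8a2 value was not tested. Col10a1 had 11 fragments over all brains and 23 over all tumours and was not tested.

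Collagens associated with fibrils by interrupted helices were mixed, with 2 of 8 higher, 1 lower and 5 not called. These shares are below the 37.1% higher and 33.9% lower of all tested genes. Col16a1, which encodes a chain found at cell and fibril borders, measured 12.8, 11.7 and 16.7 CPM in brains 1 to 3 and 124, 44.7, 102, 244 and 86.4 CPM in tumours 1 to 5. All tumours were above all brains, tumour 4 highest (log2 fold change 3.13 ± 0.54, SE, edgeR adjusted p = 0.000790). Col14a1, a fibril-surface collagen of tendon and skin, measured 1.86, 1.87 and 3.00 CPM in brains 1 to 3 and 7.75, 13.3, 7.05, 6.11 and 37.8 CPM in tumours 1 to 5. Its groups did not overlap, tumour 5 was highest (log2 fold change 2.68 ± 0.73, SE, edgeR adjusted p = 0.00951), and the change was 1.92 without tumour 5. Col22a1, a collagen of tissue junctions, measured 1.69, 3.46 and 3.81 CPM in brains 1 to 3 and 0.620, 0.360, 0.378, 2.15 and 0.726 CPM in tumours 1 to 5. Tumour 4 fell inside the brain range, and the log2 fold change was -1.69 ± 0.60 (SE; edgeR adjusted p = 0.0310). The call of Col22a1 was lost without brain 2, brain 3 or any of tumours 1, 2, 3 and 5 (edgeR adjusted p between 0.0550 and 0.109), and the change was -2.43 without tumour 4.

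The 5 uncalled genes of this group had tumours on both sides of the brains or within their range. Col19a1, a collagen of hippocampal interneurons, measured 79.2, 64.9 and 72.0 CPM in brains 1 to 3 and 40.4, 0.180, 1.26, 89.4 and 3.79 CPM in tumours 1 to 5. Tumours 1 and 4 were near the brain level, and tumours 2, 3 and 5 were far below it (log2 fold change -1.40 ± 1.27, SE, edgeR adjusted p = 0.348, and -2.67 without tumour 4). Col20a1 measured 2.03, 2.31 and 2.45 CPM in brains 1 to 3 and 17.2, 1.44, 0.630, 28.8 and 2.18 CPM in tumours 1 to 5. Again tumours 1 and 4 stood apart from the other tumours, this time above the brains (log2 fold change 2.16 ± 1.21, SE, edgeR adjusted p = 0.139, and 1.22 without tumour 4). Col9a3 measured 20.1, 8.94 and 8.31 CPM in brains 1 to 3 and 12.9, 2.34, 3.40, 24.0 and 2.18 CPM in tumours 1 to 5. Tumours 1 and 4 were again the highest tumours (log2 fold change -0.45 ± 0.81, SE, edgeR adjusted p = 0.638), and the change was 0.071 without brain 1 and -1.27 without tumour 4. Col9a2 measured 3.38, 5.04 and 7.22 CPM in brains 1 to 3 and 2.17, 0.901, 0.630, 7.44 and 1.37 CPM in tumours 1 to 5. Only tumour 4 reached the brain range (log2 fold change -0.99 ± 0.74, SE, edgeR adjusted p = 0.256), and without tumour 4 it was called lower, at -2.02 (edgeR adjusted p = 0.00287). Col9a1, like Col9a2 and Col9a3 a chain of cartilage type IX collagen, measured 0.507, 0.432 and 1.09 CPM in brains 1 to 3 and 2.63, 1.08, 0.126, 2.09 and 1.37 CPM in tumours 1 to 5. The groups overlapped, and the log2 fold change was 1.09 ± 0.77 (SE; edgeR adjusted p = 0.230). It was called without tumour 3 (1.38, edgeR adjusted p = 0.0407). The oligodendrocyte precursor sums given for Col11a1 were highest in the same tumours 1 and 4, and their part was not tested.

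Of 4 transmembrane collagens, Col25a1 carried the largest fall in the family. Col25a1 encodes a collagen of neuronal membranes whose shed form binds amyloid. Col25a1 measured 85.7, 103 and 130.2 CPM in brains 1 to 3 and 8.37, 5.95, 8.18, 4.54 and 17.1 CPM in tumours 1 to 5. Each tumour was below each brain by a wide margin, and the log2 fold change was -3.58 ± 0.39 (SE; edgeR adjusted p = 6.04e-05). Its share of all collagen FPKM was 14.1 to 19.9% in the brains and 0.104 to 0.213% in the tumours. The sum of 8 neuronal markers was 6932 to 8072 CPM in the brains and 523 to 936 CPM in the tumours, and the part of neuron number in the Col25a1 value was not tested. Col23a1 measured 5.74, 18.4 and 33.0 CPM in brains 1 to 3 and 31.1, 37.5, 114, 13.1 and 77.0 CPM in tumours 1 to 5. The brains themselves were spread widely, and the log2 fold change was 1.51 ± 0.76 (SE; edgeR adjusted p = 0.102). It was called without tumour 4 (1.77, edgeR adjusted p = 0.0269), and by DESeq2, and was 2.17 without brain 3. Col13a1, a collagen of cell contacts and the neuromuscular junction, measured 0.338, 0.288 and 0.681 CPM in brains 1 to 3 and 1.70, 0.721, 0.630, 2.44 and 4.28 CPM in tumours 1 to 5. Its groups overlapped, and the log2 fold change was 2.16 ± 0.77 (SE; edgeR adjusted p = 0.0318). Col13a1 passed the filter on low levels through the tumours alone. The call was lost without brain 1 or brain 2 (edgeR adjusted p = 0.0966 and 0.107). Col17a1, the hemidesmosome collagen, was not tested, with 10 fragments over all brains and 31 over all tumours.

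Col15a1 and Col18a1 encode the multiplexins, basement membrane-associated collagens that release endostatin-like fragments. Col18a1 measured 1.52, 2.59 and 2.86 CPM in brains 1 to 3 and 151, 156, 264, 104 and 272 CPM in tumours 1 to 5. Every tumour was above every brain, and the tumours differed from each other by 2.61 times at most. The log2 fold change was 6.33 ± 0.47 (SE; edgeR adjusted p = 7.39e-06). Col15a1 measured 2.53, 1.01 and 1.5 CPM in brains 1 to 3 and 23.1, 39.3, 19.5, 63.7 and 44.4 CPM in tumours 1 to 5. The groups did not overlap, and tumour 4 was the highest (log2 fold change 4.51 ± 0.54, SE, edgeR adjusted p = 9.36e-05). The last 2 members, Col26a1 and Col28a1, fit no larger group. Col28a1 measured 0.845, 0.865 and 1.36 CPM in brains 1 to 3 and 5.27, 3.06, 6.80, 4.65 and 20.7 CPM in tumours 1 to 5. Its tumours were above its brains (log2 fold change 2.97 ± 0.73, SE, edgeR adjusted p = 0.00580, and 2.26 without tumour 5). Both Col15a1 and Col28a1 passed the filter on low levels through the tumours alone. Col26a1 measured 3.38, 3.17 and 4.90 CPM in brains 1 to 3 and 1.24, 0.360, 1.64, 5.35 and 14.1 CPM in tumours 1 to 5. Its tumours were on both sides of the brains (log2 fold change 0.30 ± 0.93, SE, edgeR adjusted p = 0.788), and the change was -0.72 without tumour 5.

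The make-up of collagen RNA differed between brain and tumour, and its sums and shares are given as a description without a test. Summed over genes, fibrillar collagen went from 13.1 ± 1.65 FPKM in brain to 381 ± 192 FPKM in tumour, a ratio of 29.0. Basement membrane collagen went from 12.4 ± 1.07 to 136 ± 44.7 FPKM, a ratio of 10.9. The other collagens went from 53.0 ± 6.69 to 231 ± 90.6 FPKM, a ratio of 4.36 (SD, n = 3 and 5 throughout). As a share of collagen FPKM, fibrillar genes made up 16.4 to 17.3% in the brains and 49.1, 60.5, 57.2, 28.4 and 49.3% in tumours 1 to 5. All tumours were above all brains in this share, and tumour 4 was the lowest. Basement membrane genes held 15.2 to 16.3% in the brains and 15.1 to 29.4% in the tumours, where tumour 4 was highest and the groups overlapped. The other genes held 66.6 to 68.4% in the brains and 22.4 to 42.3% in the tumours.

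**Figure D3:**
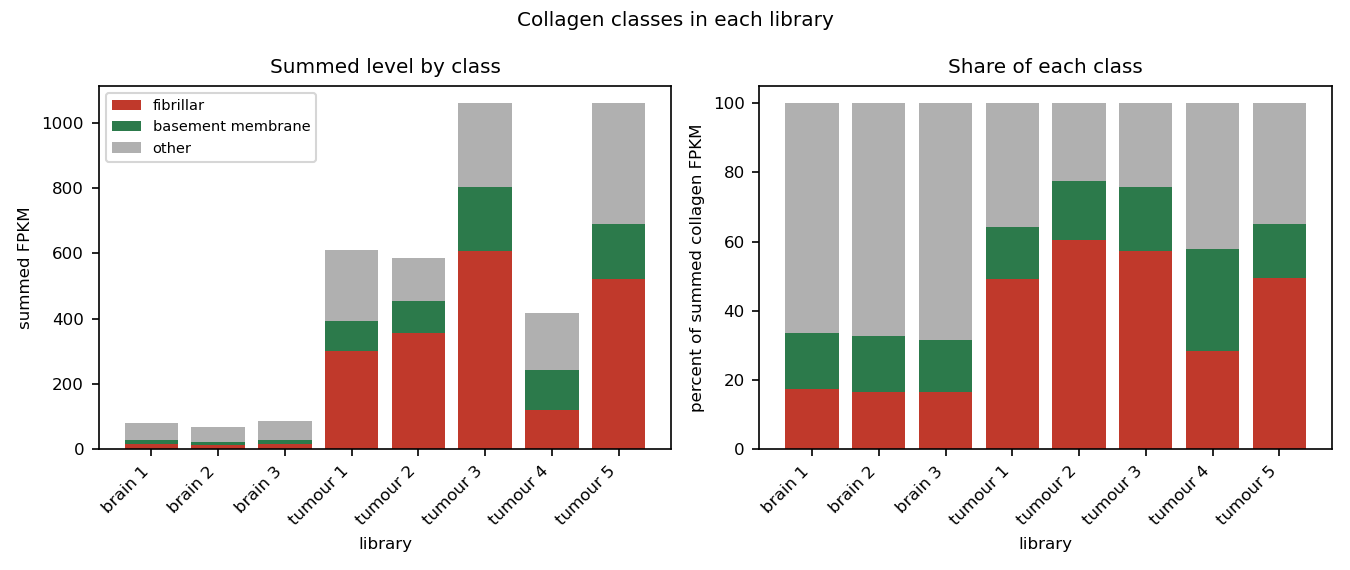
Collagen FPKM by structural class in each of the 8 libraries, as summed FPKM and as the share of all collagen FPKM. Fibrillar genes made up 16.4 to 17.3% in the brains and 28.4 to 60.5% in the tumours, with tumour 4 lowest.

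Chains of the same or a partner collagen often differed in how far they changed. Ratios of FPKM within a library were formed for 10 pairs of chains. The pairs were chosen after values had been seen, so their ratios are given as a description without a test. For 8 of the 10 pairs the ratios of the brains and the tumours did not overlap, and with any 1 library left out the difference of no pair changed sign. Separated groups are common in these data. By CPM, every tumour lay above every brain for 36.1% of all tested genes and below for 34.5%. Such a share was not formed for ratios of other genes. Col1a2 RNA was 2.65 to 3.82 times Col1a1 RNA in the brains and 59.2, 10.4, 9.86, 5.59 and 11.2 times in tumours 1 to 5. Tumour 1 stood far above the rest, and the difference in mean log2 ratio was 2.08. Col1a1 RNA was thus below Col1a2 RNA per length in every library, although the protein holds more Col1a1 chains, and whether all Col1a1 fragments were assigned to it cannot be read from the deposited table. The level, fold and ratios of Col1a1 are uncertain for that reason. Col3a1 RNA was 0.421 to 0.644 times Col1a2 RNA in the brains and 1.61 to 8.20 times in the tumours (difference 2.65). Relative to Col5a1, Col5a2 went from 0.441 to 0.602 in the brains to 1.46 to 4.74 in the tumours, and Col5a3 from 0.143 to 0.164 to 0.818 to 2.69 (log2 differences 2.43 and 2.87). For Col11a1 over Col11a2 the ratio was 0.780 to 1.48 in the brains and 80.0, 2.86, 4.50, 64.8 and 8.84 in tumours 1 to 5. Even the 3 tumours with little Col11a1 were above the brains in this ratio, and the log2 difference was 3.66, or 3.03 without tumour 1.

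Within type IV, Col4a1 exceeded Col4a2 by 1.01 to 1.32 times in the brains and by 1.94 to 2.60 times in the tumours (log2 difference 0.87). The ratio of Col4a5 to Col4a6 went down, from 3.48 to 5.03 in the brains to 1.52 to 2.78 in the tumours (log2 difference -1.02). Col4a5 over Col4a1 was 0.137 to 0.178 in the brains and 0.138 to 1.07 in the tumours, where tumour 5 was at the brain level. In type VI, Col6a1 over Col6a3 went from 24.9 to 32.4 in the brains to 3.78 to 15.7 in the tumours (log2 difference -1.92). Col6a1 over Col6a2 was 3.74 to 5.14 in the brains and 4.71 to 9.86 in the tumours, and the groups overlapped at tumour 5 (log2 difference 0.75). FPKM divides by the annotated transcript length, so the level of a ratio depends on the annotation. The difference between groups does not, unless the transcripts used differ. They did differ between libraries for Col6a3 and Col4a5, whose estimated fragments were divided unlike among their transcripts. The group differences in the ratios with these genes therefore depend on the annotation too.

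**Figure D4:**
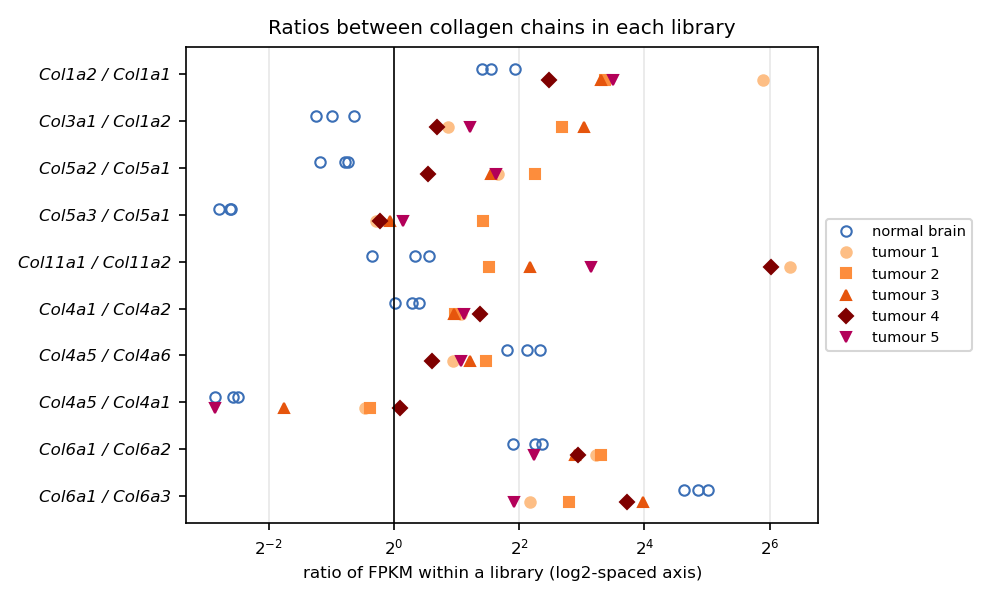
Ratio of FPKM between 10 pairs of collagen chains in each library, on a logarithmic axis, with brains as open circles and tumours as filled symbols. The pairs were chosen after values had been seen. The groups are apart for 8 pairs, and Col11a1 over Col11a2 runs from 2.86 to 80.0 among the tumours. By CPM, every tumour lay above every brain for 36.1% of all tested genes and below for 34.5%.

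The tumours differed among themselves more than the brains did. For 33 of the 37 tested collagen genes the SD of log2 CPM was larger in the tumours, and the same held for 85.1% of all tested genes, so this spread is near the background. Tumour 5 had the highest tumour value for 18 genes, tumour 4 for 13, tumour 3 for 8 and tumours 1 and 2 for 2 each. The lowest tumour value fell to tumour 4 for 19 genes, tumour 2 for 10, tumour 3 for 7, tumour 1 for 4 and tumour 5 for 3. Tumour 4 thus combined the lowest levels of Col3a1, Col5a1, Col5a2, Col5a3, Col7a1 and Col18a1 with the highest levels of Col4a5, Col4a6, Col11a1, Col15a1 and Col16a1. Tumour 5 combined the highest levels of Col1a1, Col1a2, Col6a1, Col6a2 and Col6a3 with the lowest of Col4a5 and Col4a6. Tumours 1 and 4 shared high levels of Col11a1, Col19a1, Col20a1, Col9a2 and Col9a3 and the lowest levels of Col3a1 and Col7a1. Each of these is a single sample, and the differences between tumours were not tested.

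**Figure D5:**
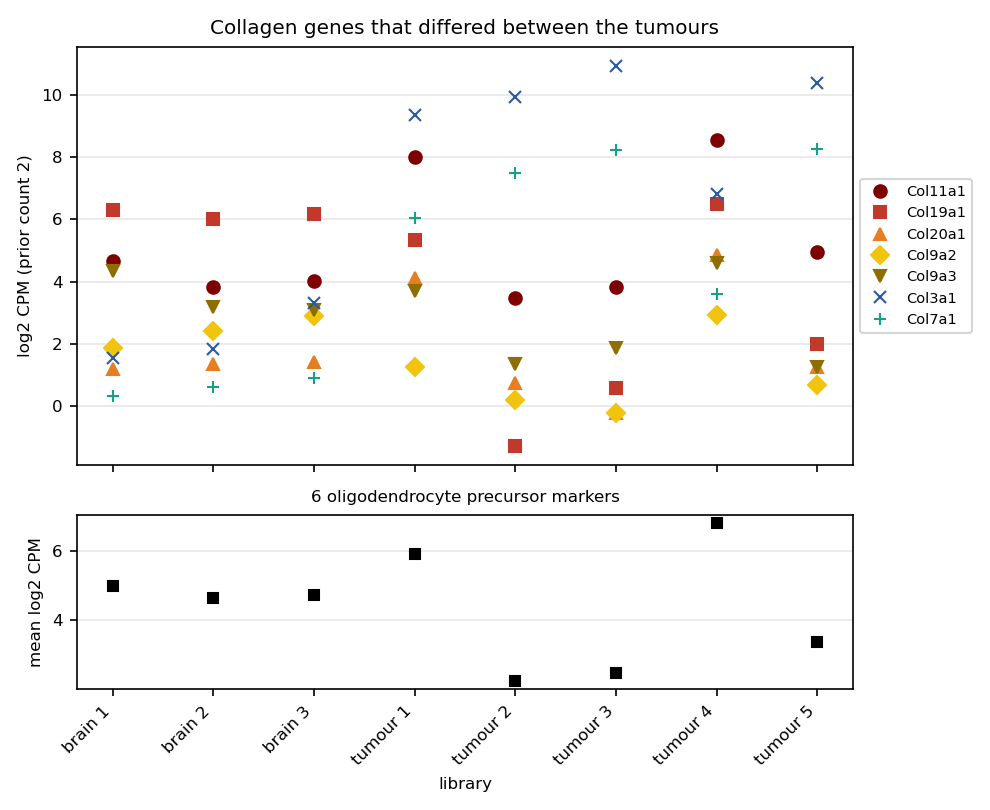
Log2 CPM with a prior count of 2 of 7 collagen genes, chosen after their values were seen, in each of the 8 libraries (upper panel), and the mean log2 CPM of 6 oligodendrocyte precursor markers (lower panel). Col11a1, Col19a1, Col20a1, Col9a2 and Col9a3 are highest among the tumours in tumours 1 and 4, as are the markers (5.92 and 6.81, beside 2.26 to 3.37 in the other tumours and 4.65 to 4.99 in the brains), whereas Col3a1 and Col7a1 are lowest there.

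Genes that act on collagen were read from lists of enzymes, receptors and binding proteins. Of 34 listed biosynthesis genes 31 were measured and 30 tested, and 24 of these were higher and 3 lower (median log2 fold change 2.98), beside 37.1% and 33.9% of all tested genes. Of the 30, 8 passed the filter through the tumours alone, Loxl2 and Loxl4 among them. Of the other 22, 18 were higher and 3 lower, beside 31.6% and 38.2% of all genes that passed in the 3 brains. Loxl2, a lysyl oxidase that cross-links collagen, measured 1.18, 0.432 and 1.09 CPM in brains 1 to 3 and 72.8, 210.5, 279.5, 89.5 and 202 CPM in tumours 1 to 5. All tumours were above the brains (log2 fold change 7.56 ± 0.70, SE, edgeR adjusted p = 2.21e-05). Loxl4, a relative, measured 0.507, 0.144 and 0.136 CPM in brains 1 to 3 and 10.2, 26.8, 28.8, 2.73 and 42.6 CPM in tumours 1 to 5. Its brains held 5 fragments in all, and the log2 fold change was 6.39 ± 1.15 (SE; edgeR adjusted p = 0.00106). Without brain 1 it was 7.18. Serpinh1, the collagen chaperone of the endoplasmic reticulum, was chosen after its values were seen and measured 18.2, 17.6 and 18.7 CPM in brains 1 to 3 and 534, 1072, 1074, 333 and 892 CPM in tumours 1 to 5. The tumours did not overlap the brains (log2 fold change 5.43 ± 0.48, SE, edgeR adjusted p = 1.76e-05). The 3 lower genes were Colgalt2, a collagen galactosyltransferase (log2 fold change -2.18 ± 0.33, SE, edgeR adjusted p = 0.000390), Adamts3, a procollagen protease (log2 fold change -2.14 ± 0.51, SE, edgeR adjusted p = 0.00474), and Tll1, which also cleaves procollagen and was named after its values were seen (log2 fold change -1.22 ± 0.28, SE, edgeR adjusted p = 0.00384).

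Of 11 listed collagen receptors 10 were measured and 9 tested, and 6 were higher and 1 lower (median 4.08), beside 37.1% and 33.9% of all tested genes. Of the 9, only Itga2 passed the filter through the tumours alone, and of the other 8, 5 were higher and 1 lower. Itgb1, the beta chain of the collagen-binding integrins and of many others, measured 113, 106 and 113 CPM in brains 1 to 3 and 5857, 8568, 7536, 3956 and 7149.8 CPM in tumours 1 to 5. The groups were far apart, and the log2 fold change was 5.90 ± 0.32 (SE; edgeR adjusted p = 1.44e-06). Itga2, the alpha chain of a collagen-binding integrin, measured 0.338, 0.721 and 0.272 CPM in brains 1 to 3 and 49.1, 45.4, 73.8, 26.0 and 153 CPM in tumours 1 to 5. Its brains held 9 fragments in all, and all tumours were above them (log2 fold change 7.24 ± 0.83, SE, edgeR adjusted p = 7.88e-05). Ddr2, a receptor tyrosine kinase for fibrillar collagen chosen after its values were seen, went from 13.7 ± 1.63 to 301 ± 108 CPM (log2 fold change 4.46 ± 0.40, SE, edgeR adjusted p = 2.02e-05). The lower receptor was Adgrg1, an adhesion G protein-coupled receptor that binds type III collagen (log2 fold change -1.34 ± 0.48, SE, edgeR adjusted p = 0.0335). Its call was lost when any of the 3 brains or tumour 1, 2 or 5 was left out (edgeR adjusted p between 0.0545 and 0.103).

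The small leucine-rich proteoglycans bind fibrils and set their spacing. All 10 listed were measured and 7 tested, of which 2 were higher and 3 lower (median -0.21), shares near the 37.1% and 33.9% of all tested genes. Of the 7, 2 passed the filter through the tumours alone, Lum among them. Of the other 5, 1 was higher and 3 lower, beside 31.6% and 38.2% of all genes that passed in the 3 brains. Lum measured 0.676, 3.75 and 3.68 CPM in brains 1 to 3 and 76.5, 76.2, 38.4, 19.7 and 112 CPM in tumours 1 to 5. Bgn measured 4.05, 3.46 and 3.95 CPM in brains 1 to 3 and 31.9, 32.3, 53.6, 33.6 and 230.3 CPM in tumours 1 to 5. Lum and Bgn, the higher genes, had all tumours above all brains (log2 fold change 4.55 ± 0.74 and 4.32 ± 0.89, SE; edgeR adjusted p = 0.000600 and 0.00219), and Bgn stood at 3.31 without tumour 5. Ogn measured 5.58, 10.1 and 17.2 CPM in brains 1 to 3 and 2.48, 1.98, 1.26, 1.34 and 0.888 CPM in tumours 1 to 5. Fmod measured 2.03, 2.45 and 4.77 CPM in brains 1 to 3 and 0.465, 0, 0.378, 0.407 and 0.968 CPM in tumours 1 to 5. In both, the tumours were below the brains (log2 fold change -2.82 ± 0.44 and -2.66 ± 0.62, SE; edgeR adjusted p = 0.000425 and 0.00426). Prelp, which anchors fibrils to basement membranes and was named after its values were seen, was lower as well (log2 fold change -2.42 ± 0.35, SE, edgeR adjusted p = 0.000274).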

How the data were processed

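The submitters' processing notes name STAR 2.3.0e, Cuffdiff 2.1.1 and the mm9 build. Settings, annotation release and strandedness: not given in the sources used here. Per the labels' protocols, DNase-treated column RNA went into TruSeq RNA libraries. The authors deposited estimated counts of fragments for 30967 transcript accessions and FPKM values, which the authors scaled per library and transcript length. Symbols came from RefSeq for 30474 accessions and from GENCODE for 178, and 315 had none (0.507% of fragments). An accession that these tables do not pair with a symbol is counted under no collagen gene, so Col12a1 is not analysed here. Estimated counts and FPKM were summed per gene and the counts rounded, because fragments shared by a gene's accessions were split: 33.2% of accession values but 97.8% of gene sums were whole within 0.01. A sum that was not whole marked 608 genes. Coordinates are RefSeq's on GRCm38.p6, a build that differs from the authors'.

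Glioblastoma (n = 5) was compared with normal brain (n = 3) by the edgeR 4.0.16 quasi-likelihood test with TMM factors, the default filter and Benjamini-Hochberg adjustment over 14641 genes. SEs came from the F statistic. CPM are TMM scaled, except for the filter and the worth of 3 fragments. Every collagen gene is reported, with each sample's value for those with a mean of at least 5 FPKM in a group, those that were lower and those with a log2 fold change of at least 4 in size, and for most of the others too. Per list, the 2 called genes with the largest change in the commoner direction and up to 2 in the other are named, and genes named beyond this are marked. The members, classes and lists were chosen with earlier results of these data known. Alternatives were DESeq2 1.42.0, other scalings, other filters, limma 3.58.1 on log2(FPKM + 1) and log2(FPKM + 0.1), and each library left out. Leaving out brain 1 and tumour 4 together was added after seeing the data. The test was checked on simulated data. R 4.3.3, pandas 2.3.3, numpy 2.4.6, scipy 1.17.1 and matplotlib 3.10.9 were used.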

Additional observations from a re-analysis of the deposited data

Results flagged for a closer look

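Among the 43 collagen genes, 2 had a tumour far from the other 4. In Col24a1 tumour 4 was the lowest tumour at 10.2 CPM, and in Col27a1 tumour 4 was again the lowest at 5.93 CPM. The test was made on log2 CPM, where the gap from tumour 4 to the next tumour was 0.735 of the range of the 5 tumours for Col24a1 and 0.831 for Col27a1, above the 95% critical value of 0.71 that Dixon's test gives for 5 samples. Chance alone flags about 1 in 20 groups, and 43 genes were looked at. The brains, with 3 samples, were not examined in this way.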

How the results depend on the processing

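Of 37 tested collagen genes 29 were called, and 24 were tested and kept their call under all 16 alternatives. Col6a4, Col8a2, Col13a1 and Col22a1 lost their call under at least 1. Col6a5 kept its call in 15 and was not tested with at least 5 CPM in 3 samples. The number of higher collagen genes ran from 22 to 26. With at least 5 CPM required in 3 samples, which tests fewer genes, the count of lower genes went from 5 to 2 in the family and from 4 to 1 among the other collagens. The lower receptor count went from 1 to 0 with library size as the only scaling, which shifts the median log2 fold change of all genes by 0.14, and ran from 0 to 2 with 1 library left out. With 1 library left out, Col9a3 ran from -1.27 to 0.071 and changed sign without brain 1, and Col26a1 ran from -0.72 to 0.58 and changed sign without tumour 5. Col26a1 also changed sign with limma on log2(FPKM + 1) (-0.15) and on log2(FPKM + 0.1) (-0.58). The cause was not tested. No paired analysis was possible because the replicate numbers follow the order of the samples and the labels pair none. The smallest library limits what can be seen to about 0.546 CPM for 3 fragments, before TMM scaling. With 3 brains, a fold against a gene of few brain fragments, such as Loxl4 or Itga2, depends on the prior count.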
